A study of Sus scrofa domesticus with 34 samples.

Results

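Heat shock proteins and J-domain (DNAJ) co-chaperones were followed across 34 pig RNA libraries from animals fed 4 vitamin D diets. The members were taken by symbol, as genes named HSPA, HSPB, HSPD, HSPE or HSPH with a number, HSP90, or DNAJA, DNAJB or DNAJC with a number. A member also needed 10 or more counts in 8 or more libraries. Of 31907 genes counted, 62 matched by symbol and 56 met the count minimum. DNAJC24 was just inside, with 10 or more counts in 8 libraries. DNAJB13 (2 libraries) and DNAJC22 (1 library) were just outside. DNAJC17, DNAJC5B, HSPB7 and HSPB9 reached 10 counts in 0 libraries. HSPA1A, HSPA1B, HSPA2, HSPB2, HSPB11, DNAJC21 and DNAJC30 were not matched by symbol and were not analysed here.

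The libraries were made with a 3′ tag method (QuantSeq), which gives about 1 read per transcript whatever its length, from tissue labelled muscle of domestic pigs. The standard cholecalciferol diet supplied 2000 IU of vitamin D3 per kg of feed to growers and 1500 IU per kg to finishers (8 libraries). The increased cholecalciferol diet supplied 3000 and 2500 IU per kg (10 libraries). The combination diet added 1000 IU per kg of calcidiol, the 25-hydroxylated form written 25(OH)D, to the standard cholecalciferol dose in both phases (8 libraries). The 25(OH)D diet held calcidiol alone at 2000 and 1500 IU per kg (8 libraries). Each diet had 4 females and 4 castrated males, except increased cholecalciferol with 6 females and 4 castrated males. All diets thus contained vitamin D, and there was no unsupplemented group. The series text counts as many individuals in each group as there are libraries.

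Library totals ran from 1340442 to 30363640 counts. They fell into 3 ranges of deposited file number: 24 libraries (numbers 1 to 24) had 4082918 to 13172623 counts, 5 (numbers 25 to 29) had 16812323 to 30363640 counts, and 5 (numbers 30 to 34) had 1340442 to 2687728 counts. The last range held 4 combination libraries and 1 25(OH)D library, so results were also computed without it. Transcripts of the labelled tissue were present, for example ACTA1, skeletal muscle actin, at 1635 ± 912 CPM (a gene's count scaled to the size of its library, SD, n = 34). The mean log2 CPM of 9 neuron markers (8.27 ± 0.21, SD, n = 34) nevertheless exceeded that of 11 muscle markers (5.57 ± 0.51) in every library. These were 9 of 10 neuron and 11 of 18 muscle genes listed. MYLPF, MYH1, MYH2, MYH4, MYH7 and MB were not matched by symbol and TNNI1 was not tested, so the muscle mean lacks them. The mean of 5 forebrain markers ran from 2.35 to 5.55 log2 CPM. These markers go against the label, so whether the libraries hold muscle, another tissue or a mixture is in doubt and was not tested. Each level below is that of the RNA deposited under the muscle label, in which more cells of a type and more RNA per cell cannot be told apart.

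Molecular chaperones keep proteins from aggregating and help them fold. HSP70 proteins (HSPA) bind unfolded stretches in a cycle driven by ATP. J proteins (DNAJ) bring clients to them and start ATP hydrolysis, and HSPH and HSPA4 proteins release the nucleotide. HSP90 proteins act late on kinases and receptors, the HSPD1 and HSPE1 chaperonin folds proteins in mitochondria, and small heat shock proteins (HSPB) hold unfolded clients without ATP. Heat or proteotoxic stress activates the factor HSF1, which raises transcription of the inducible members, while constitutive members such as HSPA8 are made in unstressed cells. Neurons use specialised J proteins at synapses, among them DNAJC5 on synaptic vesicles and DNAJC6, which with HSPA8 strips clathrin from vesicles.

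The cytosolic HSP90 genes and the constitutive HSP70 gene led the family in level. HSP90AA1, the stress-responsive cytosolic HSP90, stood at 2549 ± 454 CPM (SD, n = 34), from 1679 to 3742 CPM. HSPA8, the constitutive cytosolic HSP70, stood at 952 ± 196 CPM, from 534 to 1495 CPM. HSP90AB1, the constitutive cytosolic HSP90, stood at 730 ± 207 CPM, from 371 to 1406 CPM. The first of these lay above the other two in every library, since its lowest value exceeded their highest, whereas the ranges of HSPA8 and HSP90AB1 overlapped. HSPA5 (BiP), the HSP70 of the endoplasmic reticulum, followed at 368 ± 92.4 CPM, and HSPA12A, an atypical HSP70, at 274 ± 107 CPM. HSPH1 (265 ± 76.4 CPM), DNAJA1 (260 ± 72.3 CPM) and HSP90B1, the HSP90 of the endoplasmic reticulum (254 ± 36.0 CPM), did not differ from one another beyond their spread.

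The lowest members were DNAJC24, which was at 0.702 ± 0.505 CPM, and DNAJB9, a J protein of the endoplasmic reticulum, at 2.51 ± 1.38 CPM. HSPB3, a small heat shock protein of muscle, was at 2.55 ± 1.33 CPM. HSPA1L was at 3.76 ± 2.50 CPM and HSPA6 at 4.38 ± 1.87 CPM. These 2 are close copies of the inducible HSP70 genes that were not matched, so reads could be split among copies and their levels are uncertain. Synaptic DNAJC5 was low, at 5.54 ± 1.76 CPM, while DNAJC6 reached 179 ± 48.4 CPM. A 3′ tag is counted only where the annotated transcript end holds it, so the order of levels between genes also depends on the annotation. CNP, an abundant myelin enzyme gene, was listed at 0 in 17 of 34 libraries while the myelin gene MBP stood at 3404 ± 1685 CPM.

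**Figure D1:**
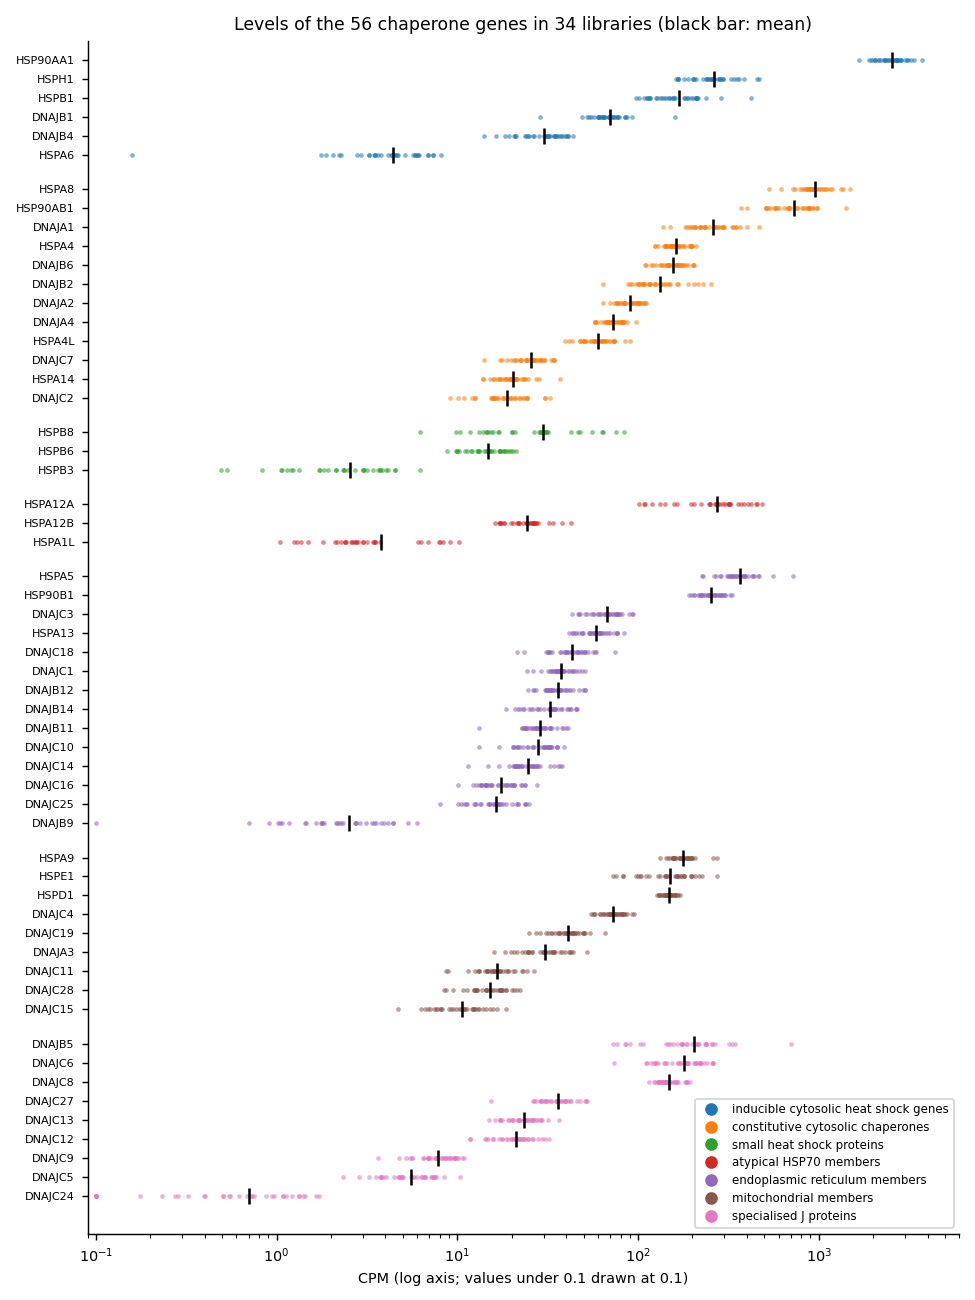
Level of each of the 56 chaperone genes in CPM on a log axis, 1 point per library (34), the black bar marking the mean and colours the class. HSP90AA1 lies apart at the top at 2549 CPM, and HSPD1 has the tightest cloud while HSPB8, HSPA1L and DNAJB5 spread widely.

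Members differed widely in how much they varied between libraries of 1 diet and sex. The biological coefficient of variation (edgeR's square root of the dispersion after diet and sex) had a median of 0.272 over the 6 inducible genes that were measured. It was 0.212 over 12 constitutive cytosolic chaperones, 0.216 over 14 members of the endoplasmic reticulum and 0.225 over 9 mitochondrial members. The 4 small heat shock proteins had the highest median of these classes, 0.413, and HSPB1 is counted among the inducible genes as well. All 55 members had a median of 0.231, against 0.318 over 13974 genes and 0.287 over the 11762 genes within the members' range of level. These medians are descriptions with no test.

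HSPD1, the mitochondrial HSP60, varied least of all members with a coefficient of 0.125, and 0% of the genes tested lay below it. Its level was 128 CPM in the lowest library, 146 CPM at the median and 172 CPM in the highest, a ratio of 1.34. HSPE1, its co-chaperonin HSP10 and its neighbour in the genome, ran from 72.9 through 154 to 272 CPM, a ratio of 3.73. The partners had nearly equal means (147 ± 11.0 and 151 ± 47.2 CPM) and very unequal spread, and their log2 CPM were not detectably related over 34 libraries (Pearson r = 0.04, permutation p = 0.835; Spearman rho = 0.05, permutation p = 0.78).

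DNAJA2, DNAJA4, HSP90B1 and HSPA4 followed HSPD1 as the least variable members, with coefficients of 0.149 to 0.166. HSPB8, the partner of BAG3 in autophagy, was the most variable at 0.568, from 6.25 through 27.4 to 84.0 CPM. HSPA1L (0.567), HSPB3 (0.530), DNAJB9 (0.498) and HSPA6 (0.446) came next, all of them members with mean levels under 5 CPM.

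No member passed in any comparison of diets. The comparisons share groups, so their lists are not independent of each other. Of 55 members tested (DNAJC24 was too low), 0 passed at an adjusted p of 0.05 by edgeR's quasi-likelihood test in any of the 6 pairs of diets or the joint test of diet, where 0 of 13974 genes passed (background 0%). DESeq2 and limma-voom also called 0 members. The estimated changes were small. Depending on the pair of diets, 49 to 53 of 55 members had a 95% interval lying wholly inside the limits of a 2-fold change, beside 68.4% to 74.4% of all genes. Members had a lower median coefficient of variation than all genes (0.231 against 0.318). Genes of like level were not counted here, so this contrast cannot be called particular to chaperones.

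Increased cholecalciferol against the standard dose asks what more vitamin D3 does. An unadjusted p under 0.05 was reached by 3 of 55 members (5.45%), beside 7.77% of all genes, and all 3 were lower, beside 4.75% of all genes lower. These were DNAJB6, a J protein that suppresses aggregation, and both cytosolic HSP90 genes. HSP90AB1 was 371 CPM in the lowest, 592 at the median and 806 in the highest library on the increased dose, against 511, 754 and 980 CPM on the standard dose. The diets overlapped, and the log2 difference was −0.37 (SE 0.17, adjusted p = 0.633 by edgeR). HSP90AA1 ran from 1892 through 2309 to 2710 CPM against 2151, 2712 and 3347 CPM, a log2 difference of −0.24 (SE 0.12, adjusted p = 0.638 by edgeR). DNAJB6 differed by −0.25 (SE 0.11, adjusted p = 0.626 by edgeR).

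Adding 25(OH)D to the standard dose gave the fewest members, 1 of 55 (1.82%) at an unadjusted p under 0.05 beside 4.34% of all genes (2.24% higher). It was DNAJC11, a mitochondrial J protein linked to the cristae, higher with 15.9, 17.0 and 26.6 CPM as lowest, median and highest against 8.68, 14.5 and 20.3 CPM, a log2 difference of 0.41 (SE 0.18, adjusted p = 0.999 by edgeR). With a term for the range of file numbers this difference was 0.21, and within file numbers 1 to 24, which hold 3 combination libraries, it was 0.02. DNAJC1 and DNAJB12, both of the endoplasmic reticulum, came next with log2 differences of 0.22 (SE 0.12) and 0.20 (SE 0.13). The DNAJB12 value was −0.064 without file numbers 30 to 34, and the DNAJC1 value was 0.08 within numbers 1 to 24.

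Replacing cholecalciferol with 25(OH)D at the standard dose put 2 of 55 members (3.64%) under an unadjusted p of 0.05, beside 3.23% of all genes, and both were lower (1.73% of all genes). DNAJA2, a cytosolic J protein of HSPA8, had 70.0, 81.2 and 96.8 CPM as lowest, median and highest on 25(OH)D and 76.2, 98.9 and 103 CPM on cholecalciferol. The log2 difference was −0.21 (SE 0.10, adjusted p = 1.00 by edgeR). DNAJC6 followed at −0.39 (SE 0.19) and HSP90B1 at −0.21 (SE 0.10). The nominal dose in IU per kg was the same in this pair.

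The combination diet against the increased cholecalciferol diet, which had the same total of 3000 and 2500 IU per kg, gave 2 of 55 members (3.64%), beside 4.14% of all genes, and both were higher (2.41% of all genes). DNAJB12 differed by 0.32 (SE 0.13) and HSP90AB1 by 0.35 (SE 0.17), with an adjusted p of 0.931 by edgeR for both. DNAJC16, a J protein of the endoplasmic reticulum, differed by −0.32 (SE 0.16). Within file numbers 1 to 24 these values were 0.009 for DNAJB12, −0.016 for HSP90AB1 and −0.19 for DNAJC16.

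The 25(OH)D diet against increased cholecalciferol had the most members with an unadjusted p under 0.05, 9 of 55 (16.4%) beside 12% of all genes. HSP90AB1, HSPA5 and DNAJB1 were higher (3 members, 5.45%, beside 5.37%), and DNAJC14, DNAJC6, DNAJC16, DNAJB14, DNAJC3 and DNAJA3 were lower (6 members, 10.9%, beside 6.59%). HSP90AB1 had 509, 855 and 1406 CPM as lowest, median and highest on 25(OH)D against 371, 592 and 806 CPM, a log2 difference of 0.47 (SE 0.17, adjusted p = 0.311 by edgeR). HSPA5 had 288, 350 and 716 CPM against 225, 319 and 387 CPM, a difference of 0.38 (SE 0.15, adjusted p = 0.341 by edgeR). DNAJC14, a J protein of the endoplasmic reticulum, had 11.4, 21.4 and 28.7 CPM against 16.9, 26.95 and 37.9 CPM, a difference of −0.42 (SE 0.16, adjusted p = 0.321 by edgeR). Diets overlapped in all 3, and both the top of HSP90AB1 and HSPA5 and the bottom of DNAJC14 came from 25(OH)D replicate 3. Without that library 4 members had an unadjusted p under 0.05, the HSPA5 difference was 0.24 and that of DNAJB1 fell from 0.35 to 0.17.

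The 25(OH)D diet against the combination put 5 of 55 members (9.09%) under an unadjusted p of 0.05 beside 7.57% of all genes. Of these, 1 was higher (3.40% of all genes) and 4 were lower (4.17% of all genes). HSP90B1 was lower on 25(OH)D, with 191, 220 and 266 CPM as lowest, median and highest against 243, 281 and 304 CPM. Its log2 difference of −0.31 (SE 0.11, adjusted p = 0.653 by edgeR) had the smallest unadjusted p of any member in any pair of diets. DNAJB12 was at −0.32 (SE 0.13), and −0.11 with a term for the range of file numbers. DNAJB1, the main inducible J protein, was at 0.42 (SE 0.18), 0.24 when 25(OH)D replicate 3 was left out and 0.79 among the libraries numbered 1 to 24. In the joint test over 4 diets, HSP90B1 alone had an unadjusted p under 0.05 (1.82% of members beside 6.71% of all genes), with an adjusted p of 0.731 by edgeR.

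**Figure D2:**
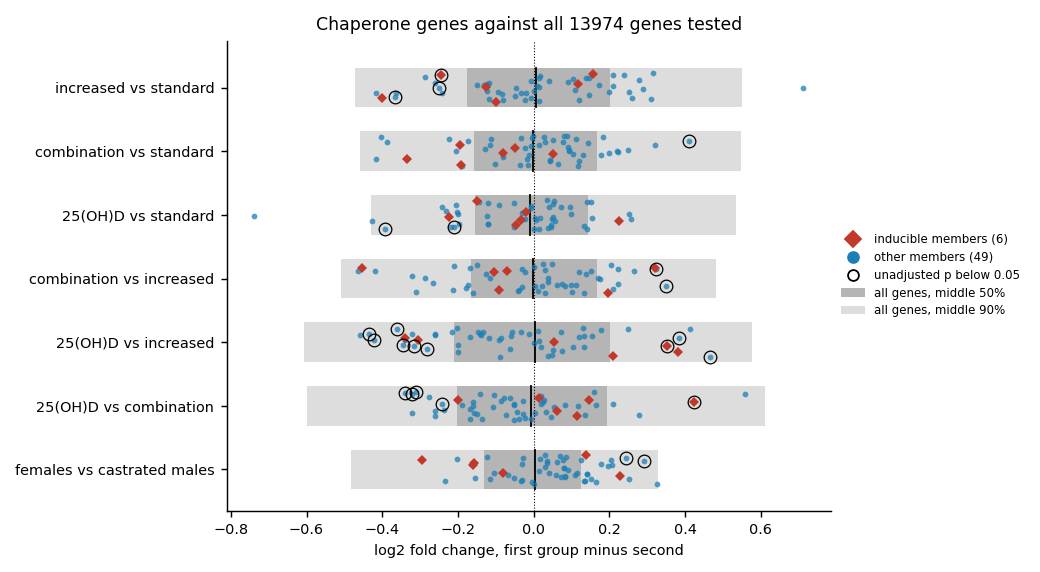
Log2 fold change of the 55 tested members in each pair of diets and between sexes, over bars for the middle 50% and 90% of all 13974 genes; diamonds are the inducible members, rings mark an unadjusted p under 0.05. Nearly all members lie within the range of other genes, with 9 rings in 25(OH)D against increased cholecalciferol and 1 to 5 in the other pairs of diets.

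The 6 inducible genes had median log2 differences from −0.14 (combination against standard) to 0.13 (25(OH)D against increased), and the 12 constitutive cytosolic genes from −0.10 to 0.07, with medians of all genes between −0.01 and 0.01. The widest shift of a class was that of the 4 small heat shock proteins in increased against standard cholecalciferol, with a median of −0.24 and 1 of 4 above 0 (50.8% of all genes above 0). The mitochondrial class lay above 0 for 8 of 9 members in increased against standard cholecalciferol (median 0.12, 50.8% of all genes above 0) and for 2 of 9 in 25(OH)D against increased cholecalciferol (median −0.12, 50.5% of all genes above 0), comparisons that share the increased group. Of the 14 members of the endoplasmic reticulum, 4 lay above 0 in 25(OH)D against increased cholecalciferol (median −0.20).

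Females and castrated males were also close. At an adjusted p of 0.05, 11 of 13974 genes (0.0787%) and 0 members passed by edgeR. At an unadjusted p under 0.05, 2 of 55 members had higher levels in females (3.64%, beside 6.58% of all genes in either direction and 2.53% higher): DNAJC28 at 0.29 (SE 0.12, females higher) and DNAJB14 at 0.24 (SE 0.11). HSPB1 was lower in females by a log2 difference of −0.30 (SE 0.15), −0.19 without 25(OH)D replicate 3, which came from a castrated male, and −0.46 within file numbers 1 to 24. The estimate was above 0 for 38 of 55 members (69.1%) beside 51.2% of all genes. A model with diet-by-sex terms, added after the data were seen, gave 2 members at an unadjusted p under 0.05 (3.64% beside 2.75%) and 0 at an adjusted p of 0.05.

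Genes of the pathway outside the symbol rule gave no calls either. HSF1 itself was low, at 1.46 ± 1.02 CPM (SD, n = 34). BAG3, an inducible partner of HSPB8, stood at 20.2 ± 5.65 CPM, CRYAB (alpha B-crystallin, a small heat shock protein) at 608 ± 157 CPM, and SERPINH1, the collagen chaperone HSP47, at 35.9 ± 11.9 CPM. Of 24 tested regulators and co-chaperones and 15 tested genes of the unfolded protein response, 0 passed in any comparison. The unfolded protein response genes lay above 0 in 1 of 15 for 25(OH)D against standard cholecalciferol (median −0.17, 48.3% of all genes above 0) and in 2 of 15 for 25(OH)D against increased cholecalciferol (median −0.20, 50.5% of all genes above 0). In the former, 0 of 15 had an unadjusted p under 0.05, beside 3.23% of all genes. In the latter, 6 of 15 were lower at an unadjusted p under 0.05, beside 6.59% of all genes. Against the combination 3 of 15 lay above 0 (median −0.18, 49.3% of all genes above 0). Of these 15, 2 were lower at an unadjusted p under 0.05, beside 4.17% of all genes. These 3 comparisons share the 25(OH)D group.

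Several inducible genes had their extreme in the same library. In 25(OH)D replicate 3, HSPH1 (469 CPM), DNAJB1 (160 CPM), HSPB1 (421 CPM) and HSP90AA1 (3742 CPM) were each the highest of 34 libraries. HSP90AB1, HSPA5 and DNAJB5 were at their highest there as well. The same library was the lowest of 34 for DNAJB4, DNAJB12, DNAJC6, DNAJC13, DNAJC14, DNAJC18 and DNAJC19, so 14 of 55 members had an extreme in it. HSPA6, known as strictly inducible, ranked 19th there. Standard cholecalciferol replicate 3 ranked 2nd for HSPH1, DNAJB1 and HSP90AA1 and 4th for HSPB1, while combination replicate 1 was lowest for DNAJB1 (28.7 CPM) and HSPB1 (97.9 CPM).

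A different library held the highest values of members from several classes. Increased cholecalciferol replicate 7 was the highest of 34 for 13 members: 5 of the endoplasmic reticulum, 4 mitochondrial, 3 of the 12 constitutive cytosolic genes and 1 specialised J protein. Among them were HSPA8 (1495 CPM), its J protein DNAJA1 (465 CPM), HSPE1 (272 CPM), DNAJA3, DNAJC3, DNAJC6 and DNAJC18. The constitutive genes did not go together there, since DNAJC7 was at its lowest of 34 and HSP90AB1 ranked 33rd. The inducible genes were spread as well, with HSP90AA1 33rd, HSPB1 32nd, DNAJB1 31st, HSPA6 16th, HSPH1 7th and DNAJB4 6th. Each of these 2 libraries was an extreme for 14 members, and each of the other 32 for 0 to 7. The share of all genes with an extreme in either library was not computed. These counts therefore cannot be called particular to chaperones. The 2 libraries had totals of 7599116 and 8505751 counts, and both belong to file numbers 1 to 24. They had TMM scaling factors of 0.797, the lowest of 34 (next 0.840), and 1.05. Their forebrain scores ranked 9th and 3rd and their cerebellum scores 31st and 33rd of 34, and the part of tissue makeup in these values was not tested.

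**Figure D3:**
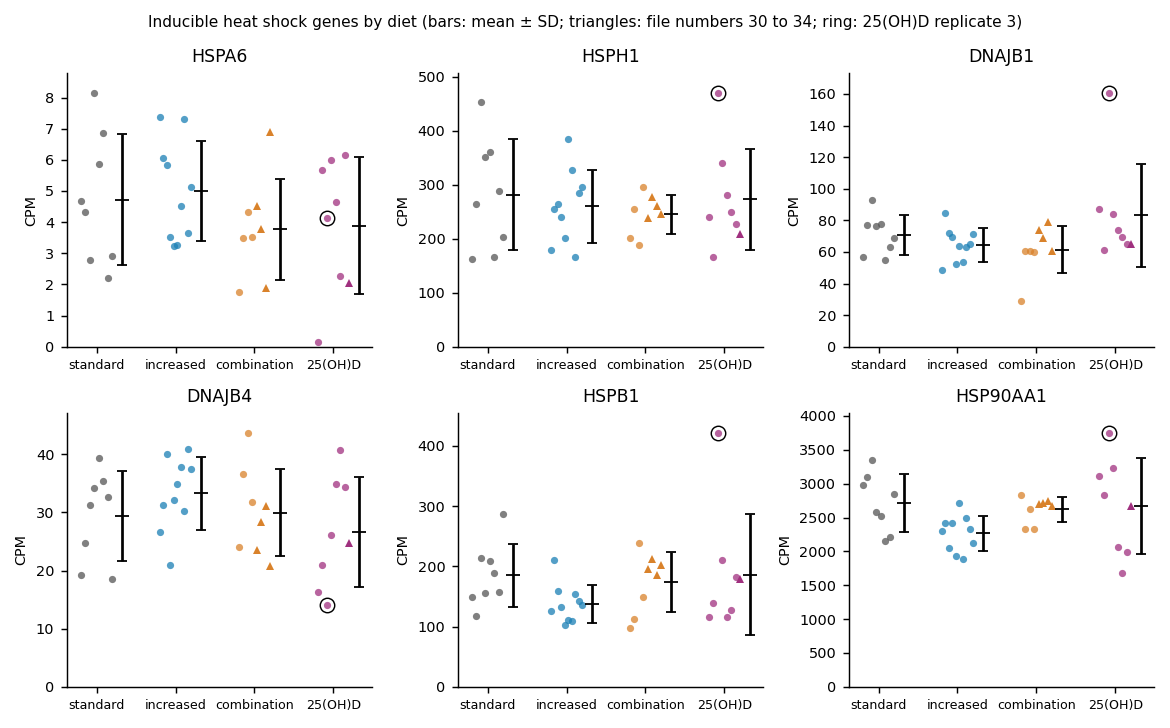
CPM of the 6 inducible members in each library by diet, with mean ± SD bars, triangles for file numbers 30 to 34 and a ring on 25(OH)D replicate 3. The 4 diets overlap for every gene, and the ringed library is the top of HSPH1, DNAJB1, HSPB1 and HSP90AA1 and the bottom of DNAJB4.

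Of the 15 pairs among the inducible genes, 4 were correlated over 34 libraries after adjustment. HSPH1 and DNAJB1 had r = 0.60 (rho = 0.55; permutation p = 0.00017 and 0.00094, adjusted over 15 pairs 0.00125 and 0.00705), 0.43 without the 2 libraries farthest from the HSPH1 median and 0.63 within file numbers 1 to 24. DNAJB1 and HSPB1 had r = 0.61 (permutation p = 0.00025, adjusted 0.00125), but rho = 0.42 (adjusted permutation p = 0.0715) and r = 0.32 without the 2 farthest libraries, so the relation was weaker without them. HSPB1 and HSP90AA1 had r = 0.46 (adjusted permutation p = 0.0208), with rho = 0.36 (adjusted 0.106) and r = 0.29 without the 2 farthest. DNAJB4, a cytosolic J protein whose loss causes a muscle disease, ran opposite to HSP90AA1 at r = −0.68 (rho = −0.70, permutation p = 1e-05 for both, the smallest that 100000 permutations can give), and −0.58 without the 2 farthest. Within file numbers 1 to 24 these last 3 pairs had r = 0.71, 0.46 and −0.67. Without 25(OH)D replicate 3, 2 of 15 pairs passed: HSPH1 with DNAJB1 (r = 0.50, adjusted permutation p = 0.0203) and DNAJB4 with HSP90AA1 (r = −0.61, adjusted permutation p = 0.003). HSPA6 passed with none of the other 5 genes. The median r was 0.22 over the inducible pairs, 0.08 over 66 constitutive cytosolic pairs and 0.04 over all 1485 pairs.

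Larger sets of co-varying members cut across the classes. In a count over all pairs, added after the data were seen, 166 of 1485 passed (104 positive, 62 negative). The share of passing pairs among all genes was not computed. Neither this count nor that of the inducible pairs can therefore be called particular to chaperones. HSPE1, DNAJB4, DNAJC3, DNAJC6 and DNAJC18 rose and fell together, with r from 0.66 to 0.84 over their 10 pairs, and ran opposite to HSP90AB1 with r from −0.78 to −0.64. Without 25(OH)D replicate 3 and increased cholecalciferol replicate 7 these ranges were 0.58 to 0.79 and −0.69 to −0.49. The 5 genes were picked after all pairs were seen, so the ranges are no independent support for a group. DNAJA3 was not among the 5, and had r from 0.55 (DNAJC6) to 0.75 (HSPE1) with them and −0.69 with HSP90AB1. The cytosolic HSP90 genes went together (r = 0.83, rho = 0.88), as did HSPA8 and DNAJA1 (r = 0.81, rho = 0.71) and HSPA5 and HSPB1 (r = 0.73, rho = 0.69). HSPA5 and HSP90B1, which share the endoplasmic reticulum, had r = −0.03 (permutation p = 0.848).

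**Figure D4:**
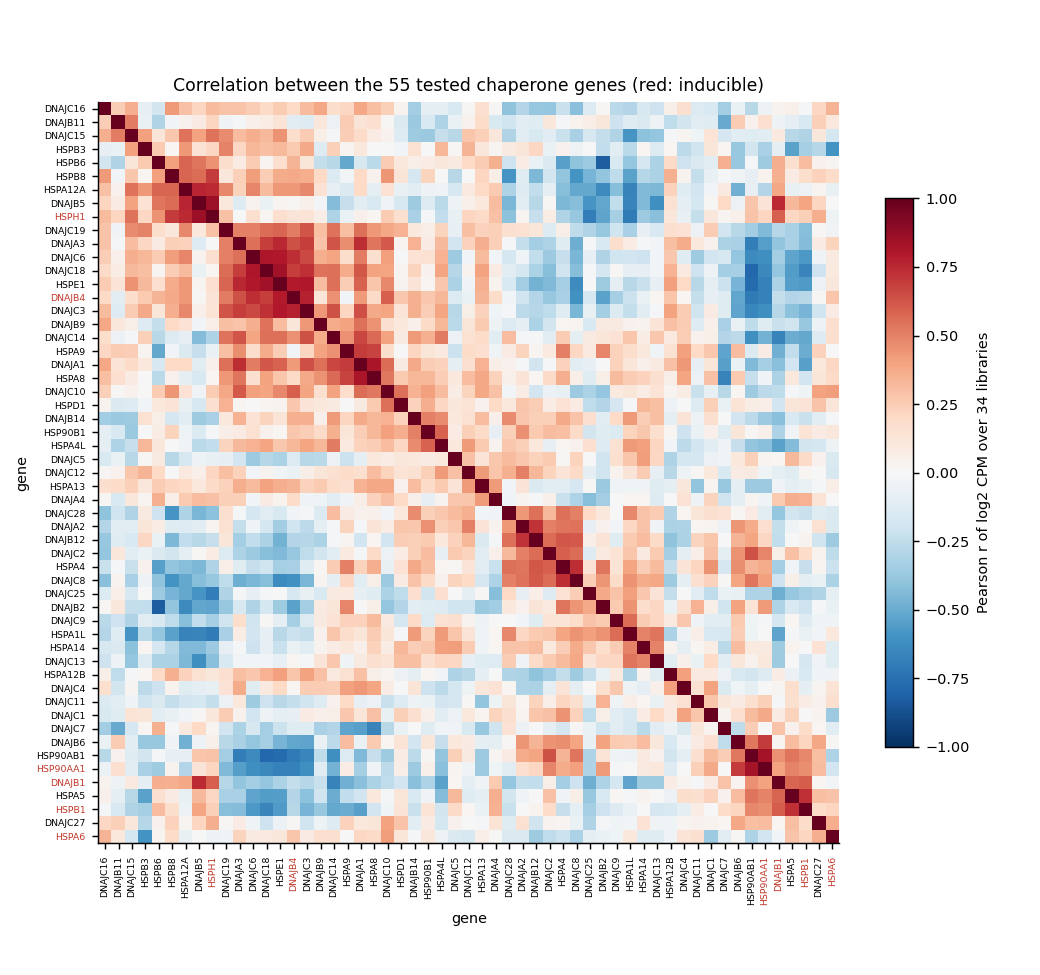
Pearson r of log2 CPM over 34 libraries for every pair of the 55 tested members, ordered by average linkage, with inducible names in red. The inducible names are scattered: HSPH1 sits with DNAJB5 and HSPA12A, DNAJB4 with HSPE1 and DNAJC18, and HSP90AA1 with HSP90AB1.

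Members varied with markers of brain regions about as often as other genes did. Against the forebrain score, 14 of 55 members (25.5%) passed in a family of 385 relations with 7 marker lists added after the data were seen, beside 30.0% of all genes at the same permutation p. The scores themselves were related over the 34 libraries: that of forebrain had r = −0.84 with cerebellum, 0.65 with astrocytes, 0.64 with microglia and 0.57 with oligodendrocytes, so these relations cannot be told apart by list. HSPA12A had r = 0.93 (rho = 0.88), DNAJB5, a J protein of the HSP40 type, r = 0.85 (rho = 0.85), and HSPH1 r = 0.82 (rho = 0.82), each with permutation p = 1e-05 (adjusted 0.00035). Within file numbers 1 to 24 these r were 0.93, 0.86 and 0.80, and without the 2 libraries farthest from the median score 0.91, 0.81 and 0.81. HSPA1L ran opposite at r = −0.77 (rho = −0.52), and DNAJB2, a J protein enriched in neurons, at r = −0.64 (rho = −0.62). The widest gap between forebrain scores, from 3.17 to 3.77, left 7 libraries below and 27 above. All 14 members kept their sign on both sides of it. They had been chosen by their relation over these same libraries, so this sign count is no independent support. The split was added after the data were seen, and other genes were not counted. HSPA12A had r = 0.66 and 0.81 below and above the gap, DNAJB5 0.39 and 0.54, HSPH1 0.04 and 0.64, and HSPA1L −0.71 and −0.42. Among inducible genes only HSPH1 and DNAJB1 passed with the forebrain list, and DNAJB1 had r = 0.53 but rho = 0.40 (adjusted permutation p = 0.0872).

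**Figure D5:**
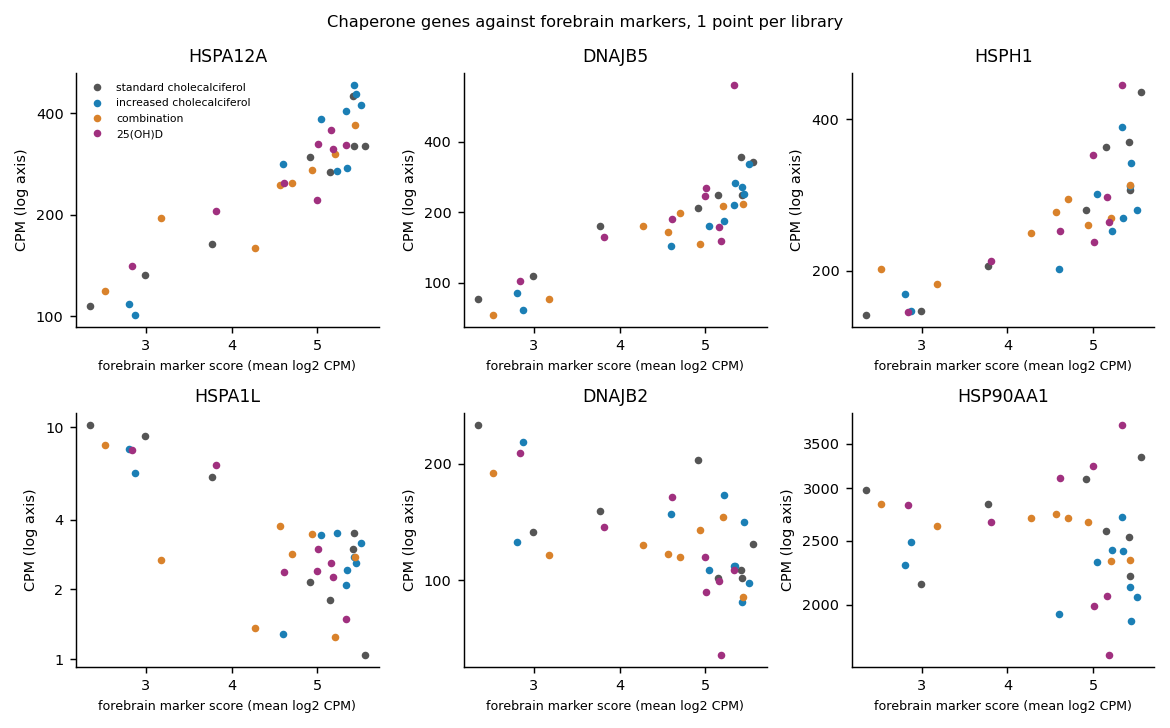
CPM (log axis) of 6 members against the mean log2 CPM of 5 forebrain markers, 1 point per library coloured by diet. HSPA12A, DNAJB5 and HSPH1 climb with the score and HSPA1L and DNAJB2 descend, with all 4 diets spread along it, while HSP90AA1 shows no such slope.

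Other cell types were also followed. With the neuron list 7 of 55 members passed (12.7%, beside 6.60% of all genes at the same permutation p), led by DNAJA2 (r = 0.73, rho = 0.73, permutation p = 1e-05, adjusted over 110 relations 0.0011) and DNAJC2 (r = 0.62). With the muscle list 2 passed (3.64%, beside 1.95%), HSPB3 (r = 0.53) and DNAJC27 (r = −0.53), both with an adjusted permutation p of 0.0249. By rank neither passed, with rho = 0.41 (adjusted permutation p = 0.159) and −0.47 (adjusted permutation p = 0.0757). Without the 2 libraries farthest from the median muscle score, r was 0.34 for HSPB3 and −0.40 for DNAJC27. In 25(OH)D replicate 1 the muscle score and HSPB3 were at their highest of 34 and DNAJC27 at its lowest. Within file numbers 1 to 24 (n = 24) the neuron list kept 2 and the muscle list 1. The r of the 7 neuron members ran from 0.50 to 0.79 there, against 0.49 to 0.73 over 34 libraries. For HSPB3 and DNAJC27 r with the muscle list was 0.54 and −0.67 there. DNAJB6 ran against the astrocyte list (r = −0.80, rho = −0.84). For the remaining lists the members stood near the background. Of 55 members, 20 passed with cerebellum (36.4%, beside 34.1% of all genes), 17 with microglia (30.9%, beside 29.6%), 16 with astrocytes (29.1%, beside 26.6%) and 9 with oligodendrocytes (16.4%, beside 20.4%). The liver list had 1 (1.82%, beside 3.39%) and the blood list 0 (beside 2.66%). The part of tissue makeup in the diet comparisons was not tested.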

How the data were processed

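Total RNA of 34 pig samples had been made into 3′ tag libraries, per the labels' protocols. The authors deposited raw read counts per gene for each sample; build, annotation and strand setting were not given in the sources used here, while FastQC, TopHat, HTSeq and DESeq2 appear in the submitters' processing notes. The 5 HTSeq category lines that name no gene were left out of totals; reads outside any gene made up 16.4% to 29.9% of all reads in a file, those lines included. Gene symbols came from a name table that matched 15029 of 31907 identifiers, and neighbouring genes from a RefSeq gene table.

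CPM used TMM-scaled library sizes, and log2 CPM a prior count of 3. All 34 libraries entered 1 model in edgeR 4.0.16 with diet and sex as terms, after edgeR's expression filter by diet (13974 genes). P-values came from the quasi-likelihood F-test, two-sided, with Benjamini-Hochberg adjustment over all genes and a threshold of 0.05. DESeq2 1.42.0, limma 3.58.1 (voom), other scalings and filters, file-number ranges and leaving out each library were alternatives. Correlations used two-sided permutation tests with 100000 permutations; beside a count of members passing with a marker list stands the share of all genes, its own markers left out, with a p no larger than that of the last member passing. No 2 files were identical, and the highest r between libraries was 0.979 over 561 pairs. The fit and the permutation test were tested on simulated data.

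The members and gene lists were chosen with earlier results of these data known. Named genes were those with the 3 smallest p in each comparison (5 for the joint test), the inducible list, 12 fixed genes, the 5 highest and lowest in level and in variation, the 3 most and least correlated with muscle and neuron markers, and 4 genes outside the symbol rule; members named beyond these in the correlation and extreme-library paragraphs were chosen after their values were seen. A planned description of protein and promoter sequences was not made.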

Additional observations from a re-analysis of the deposited data

Results flagged for a closer look

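Among 36 named members in 4 diets (144 sets of libraries), Dixon's test at 95% marked 13 values that stood apart from the rest of their diet. For independent sets not chosen by their values, chance marks about 1 in 20. Many of these members were named for their values in the same data, and they share libraries. That rate is therefore no measure of how unusual 13 flags are. Values are log2 CPM. Library 25(OH)D replicate 3 accounted for 3 of them: DNAJB1 was high at 7.33 (next library 6.45), HSPB1 was high at 8.72 (next 7.72) and DNAJC14 was low at 3.56 (next 4.29). Combination replicate 1 accounted for 3 more: DNAJB1 was low at 4.86 (next 5.91), HSPA8 was high at 10.41 (next 9.91) and HSPA9, the mitochondrial HSP70, was high at 8.10 (next 7.64). This library ranked 1st of 34 in neuron score, 2nd in cerebellum score and 33rd in forebrain score. HSPA9 was also high in increased cholecalciferol replicate 7, at 8.02 (next 7.62).

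The other flags were single low values. On increased cholecalciferol these were DNAJB12 in replicate 8 at 4.73, DNAJC1 in replicate 4 at 4.62 and HSPB3 in replicate 1 at −0.15. On 25(OH)D they were DNAJC11 in replicate 6 at 3.22, DNAJC7 in replicate 2 at 4.15 and HSPA6 in replicate 1 at −0.92, which rested on 1 count.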

How the results depend on the processing

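The count of members called was 0 in every comparison under every alternative that was run. For 25(OH)D against increased cholecalciferol, members with an unadjusted p under 0.05 numbered 9 in the model as reported, 4 to 12 when 1 library was left out and 4 to 12 under the other alternatives (4 with a file-number term). In the other pairs of diets the range over all alternatives was 0 to 6. Log2 differences changed sign for DNAJB12 in combination against standard cholecalciferol (0.20 as reported, −0.0030 with a file-number term, −0.059 within file numbers 1 to 24 and −0.064 without numbers 30 to 34) and for HSP90AB1 in combination against increased cholecalciferol (0.35 as reported, −0.016 within file numbers 1 to 24). Of the inducible pairs 4 passed as reported, 2 by Spearman's rho, 2 without 25(OH)D replicate 3 and 2 without that library and increased cholecalciferol replicate 7. Members passing with the muscle list were 2 as reported and 0 by Spearman's rho. They were 1 within file numbers 1 to 24 and 1 without numbers 30 to 34. With the neuron list the counts in the same order were 7, 4, 2 and 2. The settings by file number hold fewer libraries, and r of these members within numbers 1 to 24 is given with the marker lists above. The cause of these changes was not tested. No paired analysis was possible because the replicate numbers only follow the order of accession and the labels pair no samples. File numbers 30 to 34, with the least depth, held 4 of 8 combination libraries, so depth and diet are partly confounded there. Members with few counts such as DNAJB9, HSPA6 and HSPB3 are measured least precisely. These 5 libraries ranked 2nd to 5th and 8th of 34 in muscle score. In cerebellum score they ranked 7th to 10th and 12th. Tissue markers are thus partly confounded with the combination diet as well. The alternatives without 25(OH)D replicate 3, the 7 further marker lists, all member pairs and the diet-by-sex terms were chosen after seeing the data. So was the split by forebrain score.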
